A study of Homo sapiens with 30 samples.

Results

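Expression was compared between 24 h and 2 h after BEAS-2B cells had been exposed to the emissions of burning charcoal with no shisha on it. BEAS-2B is an established, immortalised line of human bronchial epithelial cells, grown here without the other cell types of an airway. The comparison rests on 6 of the 30 libraries of the series, chosen by their labelled condition and time and not by any measured value. They are 3 wells taken 24 h after charcoal and 3 wells taken 2 h after charcoal. Beside them stand 6 libraries from control wells, 3 at 24 h and 3 at 2 h. Each exposure lasted 30 min, with the cells on a rocker, and its dose was the highest that caused no LDH release at 24 h. The labels do not say what took the place of smoke in control wells, or whether wells of 1 group came from separate cultures. The p-values measure the spread between wells of a group, which may therefore be technical. For each gene that spread was pooled over all 10 groups of the series. Wells outside the groups described here thus count towards it. Each well gave 1 library, so a change with time is a difference between wells, and an unexposed state before the start was not analysed here. The 4 groups allow 2 questions: how charcoal-exposed cells at 24 h differed from those at 2 h, and whether that difference was the one control wells showed over the same hours.

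Immediate early genes, such as FOS, EGR1 and NR4A1, are switched on within minutes of a stimulus, mostly through ERK and related kinases, and their products turn on a later wave of genes. Among the genes of that wave are the phosphatases and adaptors that shut the kinases off again. Smoke from burning plant matter carries aromatic hydrocarbons, which are ligands of the aryl hydrocarbon receptor (AHR), and reactive carbonyls, which release the antioxidant factor NRF2 from its inhibitor KEAP1. Cultured cells can also change with time without a stimulus, and control wells were sampled at the same times.

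The 6 libraries were alike in their totals. Their FPKM values, fragment levels scaled for transcript length and library depth, summed to between 199985 and 204050 per library, and 7771 to 7944 genes per library reached 1 FPKM. Wells of the same time correlated at 0.9884 to 0.9913 on the log2(FPKM + 1) scale, and wells of different times at 0.9668 to 0.9711, across genes, which are not independent. Read counts were not recovered. Ratios of the lowest values gave the depth of each library relative to well 1 at 2 h after charcoal, with 1.29, 1.33 and 1.65 for the wells at 24 h and 1, 1.27 and 1.43 for those at 2 h. Of 10 epithelial markers looked for, 8 were in the data and 4 passed the filter on low values. The summed level of the 8 was 1170 to 1250 FPKM in charcoal wells at 24 h and 940 to 976 FPKM at 2 h. KRT8 and KRT18 carried most of it, while 2 of the 8 were at 0 in every charcoal well at 24 h and 1 at 2 h. Of 7 secretory and mucous cell markers MUC1 alone was tested, and 6 were at 0 in every charcoal well at either time. No ciliated, endothelial or red blood cell marker passed the filter on low values, of 8, 6 and 6 looked for. Of 9 fibroblast markers 5 were tested, and of 8 immune cell markers CD14 and CD68. Because each library is a whole well, fewer cells expressing a gene and less of its RNA per cell cannot be told apart. Each library was made from 1 ug of total RNA, so the values do not give the number of cells in a well.

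Of 8531 tested genes, 3628 differed between 24 h and 2 h after charcoal at a limma adjusted p below 0.05, which is 42.5% of all. Higher at 24 h were 2570 genes (30.1%) and lower were 1058 (12.4%). That split depended on how libraries were scaled: after median-of-ratios scaling, which set the median change of all genes near zero, 1540 genes were higher and 1624 lower. List counts given below as after scaling belong beside these counts of 8531 genes, and not beside the unscaled percentages. Most changes were small, and the large ones were falls. At least 2-fold lower on the log2(FPKM + 1) scale were 174 genes (2.04%), and at least 2-fold higher were 41 (0.481%). The median log2 change of all tested genes was 0.08. For 3476 genes (40.7%) all 3 wells at 24 h lay above all 3 at 2 h, and for 1507 (17.7%) all lay below.

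Over the same hours, 1440 genes (16.9%) changed in control wells, 635 higher at 24 h (7.44%) and 805 lower (9.44%). At least 2-fold higher were 20 (0.234%) and lower 7 (0.0821%). Without well 3 of control at 2 h 885 changed. The charcoal and control comparisons share no library, but both use the same pooled spread for each gene, so their calls are not independent. Of the genes that rose after charcoal, 400 also rose in control wells. That is 15.6% of the charcoal list, where 7.44% of all genes rose in control wells. It is 63% of the control list, where 30.1% of all genes rose after charcoal. Of those that fell after charcoal, 299 also fell in control wells. They are 28.3% of the charcoal list (9.44% of all genes) and 37.1% of the control list (12.4% of all genes). The time change itself, 24 h over 2 h, differed between charcoal and control wells for 1979 genes (23.2%). It was more positive after charcoal for 1382 of them (16.2%) and more negative for 597 (7%), against 716 and 889 after median-of-ratios scaling. At 24 h, 842 genes (9.87%) still differed between charcoal and control wells, and 511 to 602 did when any 1 library of the 2 groups was left out. At least 2-fold higher were 9 (0.105%) and lower 7 (0.0821%). At 2 h, 2081 genes (24.4%) had differed, 696 higher (8.16%) and 1385 lower (16.2%), and 148 (1.73%) and 11 (0.129%) by at least 2-fold. By that fold 37 genes (0.434%) had a more positive and 151 (1.77%) a more negative time change after charcoal. The comparisons with control share their charcoal libraries with the change over time, so their values stand side by side and are not independent.

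**Figure D1:**
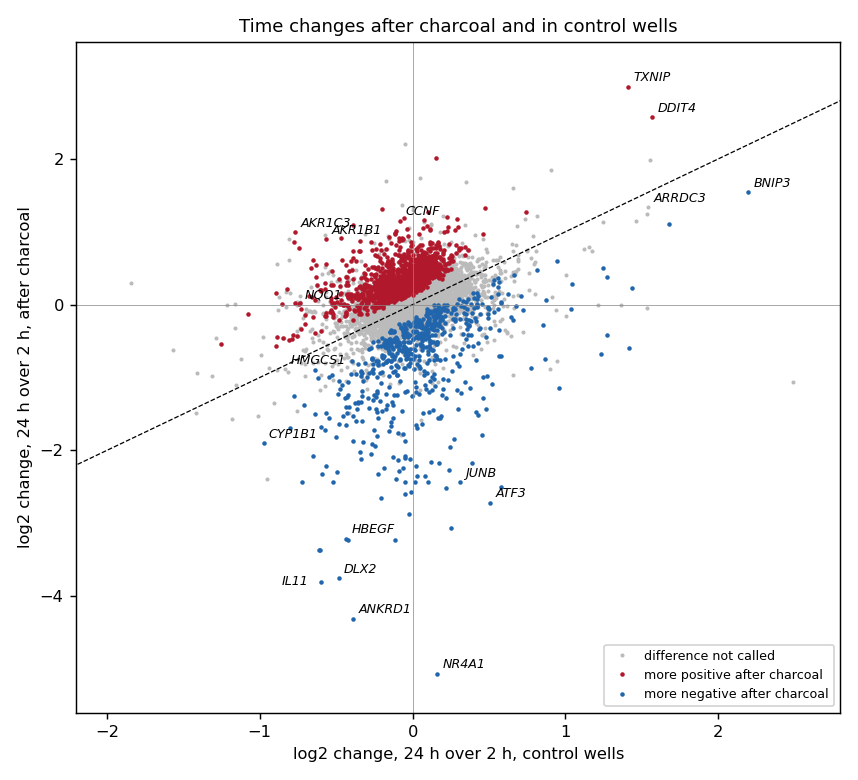
Each point is 1 of 8531 tested genes, placed by its log2 change from 24 h over 2 h in control wells (horizontal axis) and after charcoal (vertical axis), on the log2(FPKM + 1) scale. Red and blue points are the 1382 and 597 genes whose time change was called more positive or more negative after charcoal, the dashed line marks equal change, and NR4A1 lies lowest at -5.07.

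The 10 largest falls were in NR4A1, ANKRD1, IL11, DLX2, SPRY4, DUSP5, F3, SGK1, HBEGF and ERRFI1. NR4A1, an orphan nuclear receptor made as an immediate early gene (chromosome 12, 52022832 to 52059503, hg38), had 0.584, 0.847 and 0.814 FPKM in charcoal wells at 24 h and 66.6, 59.0 and 48.3 FPKM in charcoal wells at 2 h. Control wells held 1.18, 1.08 and 0.754 FPKM at 24 h and 0.784, 0.842 and 0.726 FPKM at 2 h. Every charcoal well at 2 h stood far above the other 9 wells, and the charcoal wells at 24 h overlapped the control wells. Its log2 change after charcoal was -5.07 ± 0.24 (SE, adjusted p = 6.18e-13), and the mean at 2 h was 77.4 times that at 24 h. In control wells the change was 0.16 (adjusted p = 0.715).

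ANKRD1, a nuclear and sarcomeric ankyrin protein read as a target of the coactivator YAP, had 1.41, 1.86 and 2.03 FPKM at 24 h after charcoal and 47.2, 47.9 and 68.2 FPKM at 2 h. DLX2, a homeobox transcription factor, had 1.12, 1.00 and 0.773 FPKM at 24 h and 29.4, 25.8 and 21.6 FPKM at 2 h. For both genes no well at 24 h came near a well at 2 h, and the log2 changes were -4.31 ± 0.42 and -3.75 ± 0.22 (SE; adjusted p = 2.66e-08 and 1.45e-11). IL11, a cytokine of the interleukin 6 family, stood at 2.48 ± 0.17 FPKM at 24 h and 47.6 ± 3.1 FPKM at 2 h (SD, n = 3 each). F3, tissue factor, which starts blood coagulation, had 37.9, 31.8 and 20.3 FPKM at 24 h and 273, 267 and 305 FPKM at 2 h. Control wells at 24 h held 65.3, 61.4 and 31.1 FPKM, a range that overlapped the charcoal wells at 24 h, and that difference was not called (adjusted p = 0.0987). SGK1, a kinase of salt and survival signalling, stood at 1.73 ± 0.27 FPKM at 24 h and 24.5 ± 1.9 FPKM at 2 h.

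**Figure D2:**
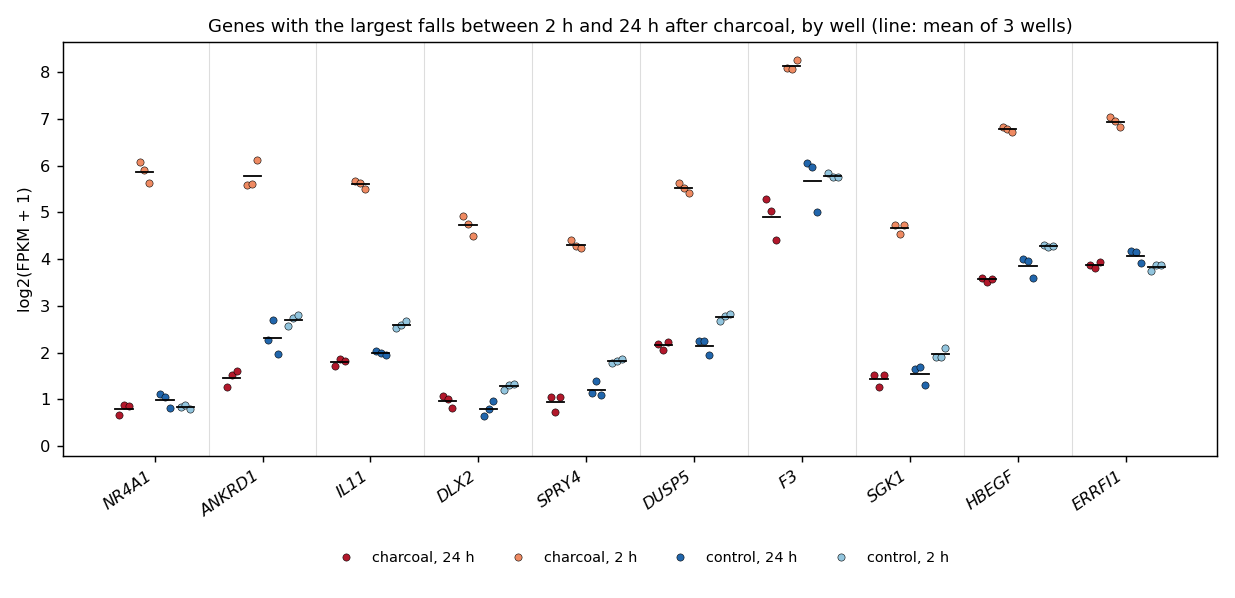
The 10 genes with the largest falls after charcoal, as log2(FPKM + 1) on the vertical axis, with 1 point per well and a line at the mean of 3 wells; groups run charcoal 24 h, charcoal 2 h, control 24 h, control 2 h. In all 10 the 3 charcoal wells at 2 h lie above the other 9 wells, as for NR4A1 with 48.3 FPKM or more against at most 1.18 FPKM.

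Of 25 immediate early genes on the list used here, 20 were tested. At 24 h after charcoal 18 were lower than at 2 h, where 12.4% of all genes were, and 1 was higher. The median log2 change of the 20 was -1.73, against 0.08 for all tested genes. JUNB, a subunit of the AP-1 transcription factor, had 17.7, 18.0 and 15.9 FPKM at 24 h and 114, 94.0 and 86.6 FPKM at 2 h. Its wells at 24 h overlapped those of control wells at 24 h, which held 19.3, 18.4 and 15.8 FPKM. ATF3, a stress-induced repressor of the same family, stood at 3.29 ± 0.69 FPKM at 24 h and 27.3 ± 5.5 FPKM at 2 h. EGR1, a zinc finger factor, stood at 1.53 ± 0.19 and 10.5 ± 1.3 FPKM, and FOS at 0.359 ± 0.041 and 3.50 ± 0.39 FPKM (24 h and 2 h, SD, n = 3 each). EGR3 had 8.10, 6.41 and 5.06 FPKM at 2 h after charcoal and lay at 0.0208 FPKM or less in each well at 24 h, listed at 0 in 1 of them. The exceptions were BTG2, an antiproliferative target of p53, which rose by 0.25 on the log2 scale and was not called without well 2 at 2 h or well 3 at 24 h (adjusted p = 0.0135, no longer called after scaling), and KLF6, which was not called with -0.06 (adjusted p = 0.95).

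Control wells showed little of this. IER5 was the 1 of 20 immediate early genes that was lower at 24 h than at 2 h there, where 9.44% of all genes were. The time change was more negative after charcoal for 17 of the 20, and for 7% of all tested genes. At 24 h none of the 20 was called between charcoal and control wells, where 9.87% of all genes were. The median log2 difference of the 20 at that time was -0.04.

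The ERK and EGFR feedback list, which holds brakes on this signalling and also ETV transcription factors, fell as a whole. All 12 tested members, out of 18 listed, were lower at 24 h after charcoal, where 12.4% of all genes were. Their median was -1.69. DUSP5, a nuclear phosphatase of ERK, had 3.58, 3.16 and 3.68 FPKM at 24 h and 48.7, 45 and 41.4 FPKM at 2 h (log2 change -3.36 ± 0.21, SE, adjusted p = 1.76e-11). ERRFI1, which binds and blocks the EGFR kinase, had 13.6, 13.0 and 14.4 FPKM at 24 h and 130, 123 and 113 FPKM at 2 h (-3.07 ± 0.26, adjusted p = 2.04e-09). SPRY4, a Sprouty inhibitor of the pathway to ERK, stood at 0.94 ± 0.24 FPKM at 24 h and 18.9 ± 1.2 FPKM at 2 h. HBEGF, the 1 of 7 EGFR ligands that passed the filter, had 11.2, 10.4 and 11.0 FPKM at 24 h and 113, 109 and 104 FPKM at 2 h, so the ligand and these brakes were high in the same wells.

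In control wells 6 of these 12 feedback genes also fell, where 9.44% of all genes did, and 3 when well 3 at 2 h or well 1 or 3 at 24 h was left out. DUSP5 was among them, at 3.47 ± 0.52 FPKM at 24 h and 5.79 ± 0.38 FPKM at 2 h. The time change was more negative after charcoal for 10 of the 12, all but DUSP10 and ETV5, and for 7% of all genes. DUSP10, a phosphatase of JNK and p38, had 8.86 ± 1.3 FPKM at 24 h after charcoal, against 4.99 ± 0.73 FPKM in control wells at 24 h (adjusted p = 0.000218), and its falls of 0.62 after charcoal and 0.72 in control wells were not called different. ETV4 was the 1 member called lower than control at 24 h (-0.55, limma adjusted p = 0.0448, and 0.221 without control well 3).

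AHR targets were lower at 24 h after charcoal in each of the 4 tested members, where 12.4% of all genes were. CYP1B1, a monooxygenase that oxidises aromatic hydrocarbons and is a standard readout of AHR (chromosome 2, 38067509 to 38076151), had 7.54, 7.73 and 8.24 FPKM at 24 h and 33.1, 32.4 and 30.7 FPKM at 2 h after charcoal. Control wells held 6.09, 6.04 and 4.62 FPKM at 24 h and 12.1, 12.5 and 11.0 FPKM at 2 h. CYP1B1 therefore fell in both kinds of well, by 1.91 after charcoal and by 0.98 in control wells on the log2 scale, and the fall was larger after charcoal (difference -0.93 ± 0.29, SE, adjusted p = 0.0227). That difference was not called without control well 3 at 2 h (adjusted p = 0.0527) or without control well 1 or 2 at 24 h (adjusted p = 0.0539 and 0.053). TIPARP, an ADP-ribosyltransferase that represses AHR in turn, stood at 18.2 ± 0.73 FPKM at 24 h and 51.2 ± 8.4 FPKM at 2 h after charcoal. NEDD9, a scaffold of focal adhesions, had 0.756 ± 0.0077 FPKM at 24 h and 4.07 ± 0.61 FPKM at 2 h. At 24 h no AHR target was called against control, where 9.87% of all genes were.

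More NF-kB targets and cytokines fell than rose. Of 16 tested, 7 were lower at 24 h after charcoal, where 12.4% of all genes were. Only 3 were higher, where 30.1% of all genes were. CXCL8, the chemokine that draws neutrophils, had 52.5, 56.1 and 54.8 FPKM at 24 h and 165, 139 and 185 FPKM at 2 h, with control wells at 60.3, 61.8 and 62.2 FPKM at 24 h. No well at 24 h overlapped a charcoal well at 2 h, and the log2 change was -1.56 ± 0.10 (SE, adjusted p = 6.36e-11). IL6 stood at 6.02 ± 0.20 FPKM at 24 h and 20.4 ± 4.1 FPKM at 2 h. CSF2, a growth factor for granulocytes and macrophages, was the 1 member that was lower than control at 24 h, with 1.95 ± 0.37 FPKM against 3.24 ± 0.22 FPKM. The 3 that rose were CXCL5 (0.47), NFKB2 (0.30) and ICAM1 (0.34, log2 changes), and none of their rises differed from those in control wells. CCL2, the monocyte chemokine, did not pass the test with time (-0.07), but it was higher than control at 24 h, with 165 ± 15 FPKM against 105 ± 3.8 FPKM (adjusted p = 0.00344).

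Genes of contractile and adhesive cells that are read as targets of YAP and of serum response factor (SRF) fell too. SRF binds the CArG box and drives both immediate early and actin cytoskeleton genes. Of 8 tested YAP and SRF targets 7 were lower at 24 h after charcoal, where 12.4% of all genes were. The receptor kinase AXL was the 1 that was higher, where 30.1% of all genes were. AXL was not called after median-of-ratios scaling. CYR61, a secreted matrix protein, had 172, 161 and 161 FPKM at 24 h and 606, 571 and 601 FPKM at 2 h. SRF itself had 11.9, 12.1 and 11.4 FPKM at 24 h and 36.6, 48.8 and 36.7 FPKM at 2 h, with no overlap (log2 change -1.69 ± 0.15, SE, adjusted p = 7.01e-09). Control wells had 13.9 ± 1.6 FPKM of SRF at 24 h and 13.5 ± 0.45 FPKM at 2 h.

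The SRF promoter is shown because the gene's own factor has its binding motif there. It runs 250 bases before to 50 after the start, from RefSeq on GRCh38.p14, 5′ to 3′ on the gene's strand, with 2 CArG boxes in capitals. They begin 30 and 10 bases before the start.
SRF promoter, chr6:43171019-43171318, plus strand: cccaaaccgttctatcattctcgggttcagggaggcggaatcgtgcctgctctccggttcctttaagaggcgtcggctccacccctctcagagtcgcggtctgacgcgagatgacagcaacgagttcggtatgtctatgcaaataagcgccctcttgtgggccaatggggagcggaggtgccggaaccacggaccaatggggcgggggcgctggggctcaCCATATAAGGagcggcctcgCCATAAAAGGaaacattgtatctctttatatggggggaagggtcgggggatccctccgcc
A CArG box was found on either strand in 1.29% of all 27305 promoters of this length, and in 1 of 5 promoters found for this list. Among 17 promoters of immediate early genes EGR1 was the 1 with such a box. These are matches of letters and not measured binding.

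TAGLN, an actin-binding protein of smooth muscle, was called lower than control at 24 h. ANKRD1 and CYR61 were also below control then, by 0.86 and 0.38 (log2), but were not called (limma adjusted p = 0.231 and 0.0899). TAGLN had 413 ± 11 FPKM at 24 h and 673 ± 17 FPKM at 2 h after charcoal, and 769 ± 50 FPKM at 24 h and 514 ± 23 FPKM at 2 h in control wells. Its change was thus -0.70 after charcoal and 0.58 in control wells, and at 24 h it was 0.89 below control (log2, adjusted p = 7.98e-07). MYL9, a myosin light chain, and AXL were the others of the 8 called lower than control at 24 h, where 3.82% of all genes were.

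Of 12 tested matrix proteases, enzymes that cut the matrix around cells, and their inhibitors, 6 fell, where 12.4% of all genes did, and 1 rose. PLAU, the urokinase protease, stood at 82.2 ± 4.1 FPKM at 24 h and 201 ± 31 FPKM at 2 h, and its receptor PLAUR at 11.0 ± 0.42 and 28.0 ± 0.77 FPKM. At 24 h PLAU differed from control by 0.30 (adjusted p = 0.0483) and PLAUR by -0.39 (adjusted p = 0.0325), calls that were lost in 5 and in 6 of the 6 fits that left out 1 well of either group at 24 h. TIMP3, an inhibitor of metalloproteinases, had 21.2 ± 0.28 FPKM at 24 h and 30.6 ± 0.96 FPKM at 2 h, and remained above the 15.1 ± 1.3 FPKM of control wells at 24 h (adjusted p = 2.9e-04). MMP2, the gelatinase, was the member that rose, with 7.30 ± 0.53 FPKM at 24 h and 3.86 ± 0.12 FPKM at 2 h. THBS1, thrombospondin, a matrix glycoprotein, had 189, 160 and 192 FPKM at 24 h and 640, 627 and 786 FPKM at 2 h, and at 24 h its wells overlapped the control range of 161 to 210 FPKM.

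Chaperones of the endoplasmic reticulum, which fold secreted proteins, were lower at 24 h in 5 of 10 tested, where 12.4% of all genes were, and higher in 1, against 7 and 0 after scaling. HSPA5, the chaperone BiP (chromosome 9, 125234853 to 125241343), had 178, 176 and 171 FPKM at 24 h and 303, 314 and 333 FPKM at 2 h. Control wells had 177, 187 and 173 FPKM at 24 h and 189, 196 and 187 FPKM at 2 h. The charcoal wells at 24 h overlapped the control wells at 24 h, and the time change was -0.85 ± 0.059 after charcoal (SE, adjusted p = 1.06e-10) and -0.09 in control wells (adjusted p = 0.314). DNAJB9, a cochaperone of HSPA5, stood at 7.02 ± 0.28 FPKM at 24 h and 11.9 ± 0.94 FPKM at 2 h, and MANF, a secreted protein of the same response, at 60.5 ± 0.75 and 86.9 ± 3.2 FPKM. PDIA3, a disulfide isomerase, was the member that rose (0.13).

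HSPA5 carries the endoplasmic reticulum stress element in its promoter, taken from RefSeq on GRCh38.p14 with the match in capitals beginning 66 bases before the start.
HSPA5 promoter, chr9:125241294-125241593, minus strand: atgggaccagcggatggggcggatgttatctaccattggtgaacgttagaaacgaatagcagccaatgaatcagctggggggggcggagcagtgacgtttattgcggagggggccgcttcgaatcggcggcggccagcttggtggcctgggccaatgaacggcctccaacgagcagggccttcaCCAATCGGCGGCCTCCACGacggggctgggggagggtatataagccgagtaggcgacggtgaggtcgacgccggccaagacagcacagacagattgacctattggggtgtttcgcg
The letters searched were CCAAT and CCACG with 9 bases of any kind between them, on both strands. They were found in 3 of 9 promoters of the list, those of CALR, CANX and HSPA5, and in 0.0806% of all promoters. CALR (-0.03) and CANX (-0.05) were not called with time after charcoal.

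Among 18 tested heat shock genes 1 fell after charcoal, where 12.4% of all genes did. It was HSPB8, a small heat shock protein, with 0.829 ± 0.027 FPKM at 24 h and 2.60 ± 0.38 FPKM at 2 h. HSPA1A and HSPA1B (-0.03 each), near-identical genes between which 50 bp reads can be shared, were not called. DNAJB1 had 56.9 ± 0.90 FPKM at 24 h and 73.7 ± 3.4 FPKM at 2 h, a difference not called here (adjusted p = 0.16) but called when the fit was limited to the compared groups (adjusted p = 0.000723). The median of the 18 was -0.03.

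Of 5 tested metallothioneins and zinc export genes SLC30A1, MT1X and MT2A were lower at 24 h after charcoal, where 12.4% of all genes were. SLC30A1, which exports zinc and is induced by it, had 16.1 ± 0.70 FPKM at 24 h and 38.3 ± 2.8 FPKM at 2 h after charcoal, and 15.4 ± 0.85 and 15.2 ± 0.27 FPKM at 24 h and 2 h in control wells. MT2A, a metallothionein that binds zinc and cadmium, behaved otherwise. It had 298, 305 and 281 FPKM at 24 h and 398, 385 and 406 FPKM at 2 h after charcoal, and control wells had 401, 405 and 484 FPKM at 24 h and 394, 409 and 388 FPKM at 2 h. The 3 charcoal wells at 24 h lay below all other 9 wells, and MT2A was 0.54 lower than control at that time (log2, adjusted p = 0.00156). Metallothionein genes are similar in sequence, so reads may have been shared among them.

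Among the largest rises were those of TXNIP, DDIT4, ELF3, BNIP3, DHRS3, ANKZF1, NDRG1, C12orf65 and C15orf48. TXNIP, which binds thioredoxin and limits glucose uptake (chromosome 1, 145992435 to 145996579), had 41.6, 41.4 and 36.2 FPKM at 24 h and 3.29, 3.46 and 5.95 FPKM at 2 h after charcoal. Control wells had 54.8, 55.6 and 55.3 FPKM at 24 h and 20.4, 21.6 and 18.7 FPKM at 2 h. The groups did not overlap, and the order of the means was control at 24 h, charcoal at 24 h, control at 2 h and charcoal at 2 h. TXNIP rose after charcoal by 2.99 ± 0.15 (SE, adjusted p = 1.5e-12) and in control wells by 1.41 (adjusted p = 9.03e-07), and the difference of 1.59 was called (adjusted p = 1.13e-05). At 24 h it did not pass the test against control (-0.47, adjusted p = 0.0571).

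DDIT4, which restrains the growth kinase mTORC1, had 37.7, 34.4 and 33.9 FPKM at 24 h and 5.11, 4.50 and 5.73 FPKM at 2 h, with control wells at 46.5 ± 1.6 FPKM at 24 h and 15.0 ± 0.22 FPKM at 2 h. As for TXNIP, its level at 2 h after charcoal was the lowest of the 4 groups. ARRDC3 and ARRDC4, arrestin-like relatives of TXNIP, rose by 1.34 and 0.50. TXNIP, ARRDC3 and ARRDC4 were the called members of the 5 tested genes of the arrestin family and MondoA targets, where 30.1% of all genes rose. That list was chosen with earlier results of these data known, so its count is descriptive only. ARRDC3 had 4.65 ± 0.23 FPKM at 24 h and 1.26 ± 0.40 FPKM at 2 h, and its rise of 1.54 in control wells was not called different.

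ELF3, an epithelial ETS factor, had 23.4, 25.8 and 23.6 FPKM at 24 h and 7.79, 6.28 and 7.93 FPKM at 2 h (1.61 ± 0.29, SE, adjusted p = 1e-04). In control wells it had 17.5 ± 1.2 FPKM at 24 h and 10.7 ± 0.43 FPKM at 2 h, and the time changes were not called different (adjusted p = 0.0977). C12orf65, a mitochondrial release factor, stood at 11.4 ± 0.36 FPKM at 24 h and 4.46 ± 0.063 FPKM at 2 h, and its rise exceeded that of control wells by 0.89 (adjusted p = 1.03e-06). ANKZF1, a factor of ribosome quality control, stood at 6.59 ± 0.95 and 2.13 ± 0.080 FPKM after charcoal, and at 8.34 ± 0.41 and 4.58 ± 0.20 FPKM in control wells, where it also rose (0.74, adjusted p = 5.7e-05). Its rise was larger after charcoal by 0.53 (adjusted p = 0.0176, and 0.0587 without well 1 at 24 h). C15orf48 had 7.41 ± 0.93 FPKM at 24 h and 2.84 ± 1.2 FPKM at 2 h after charcoal, and 4.87 ± 0.63 and 2.53 ± 0.36 FPKM in control wells, and its rises of 1.17 and 0.73 were not called different (adjusted p = 0.326).

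**Figure D3:**
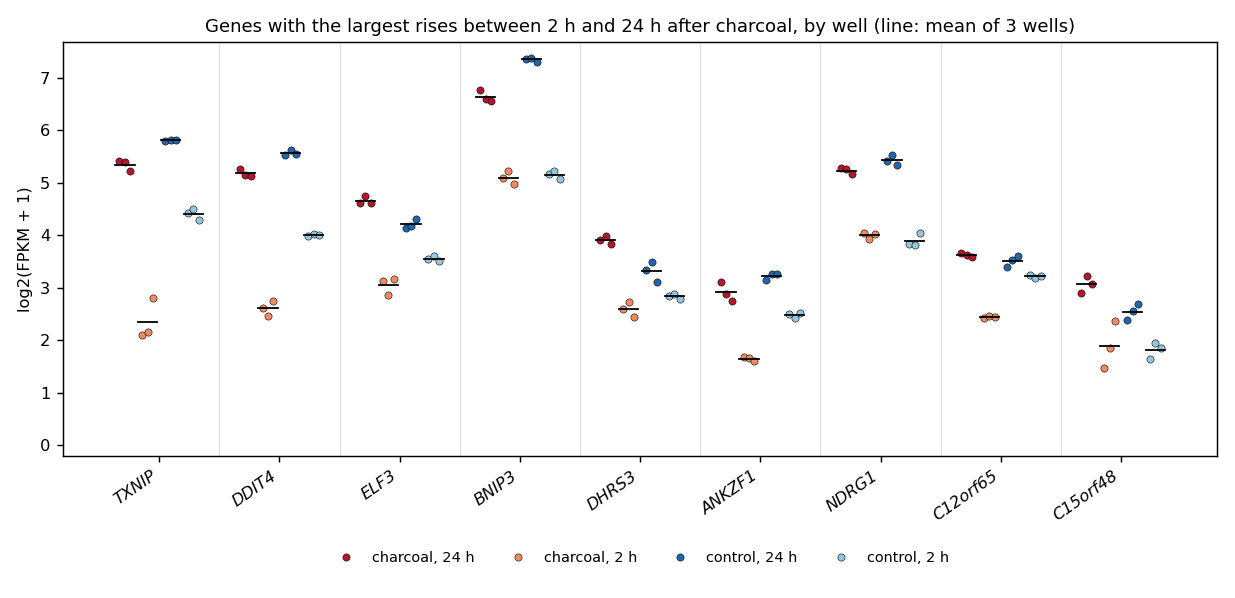
The 9 genes named here for the largest rises after charcoal, as log2(FPKM + 1) on the vertical axis, with 1 point per well and a line at the mean of 3 wells; groups run charcoal 24 h, charcoal 2 h, control 24 h, control 2 h. TXNIP and DDIT4 are lowest in charcoal wells at 2 h, with 3.29 to 5.95 FPKM for TXNIP, while the BNIP3 and NDRG1 wells of charcoal and control overlap at 2 h.

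Genes of hypoxia and glycolysis, targets of the oxygen-sensing factor HIF, rose in both kinds of well. Of 23 tested, 16 were higher and 4 lower at 24 h after charcoal (median 0.41), where 30.1% and 12.4% of all genes were. In control wells 19 were higher and 0 lower (median 0.75), where 7.44% and 9.44% of all genes were. BNIP3, a receptor for mitophagy (chromosome 10, 131967684 to 131981923), had 108, 96.4 and 93.0 FPKM at 24 h and 33.2, 36.2 and 30.7 FPKM at 2 h after charcoal. Control wells had 164, 166 and 158 FPKM at 24 h and 34.9, 36.4 and 32.6 FPKM at 2 h. At 2 h the ranges overlapped, and at 24 h the charcoal wells lay below the control wells without overlap. The rise was 1.54 ± 0.088 after charcoal and 2.20 ± 0.088 in control wells (SE), and the difference of -0.65 was called (adjusted p = 4.78e-04). NDRG1, a stress-induced differentiation protein, rose by 1.24 after charcoal and by 1.54 in control wells, with no called difference.

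The BNIP3 promoter is printed from RefSeq on GRCh38.p14 because it holds the core of the HIF motif, ACGTG, on both strands. The overlapping matches are in capitals and begin 134 and 133 bases before the start.
BNIP3 promoter, chr10:131981874-131982173, minus strand: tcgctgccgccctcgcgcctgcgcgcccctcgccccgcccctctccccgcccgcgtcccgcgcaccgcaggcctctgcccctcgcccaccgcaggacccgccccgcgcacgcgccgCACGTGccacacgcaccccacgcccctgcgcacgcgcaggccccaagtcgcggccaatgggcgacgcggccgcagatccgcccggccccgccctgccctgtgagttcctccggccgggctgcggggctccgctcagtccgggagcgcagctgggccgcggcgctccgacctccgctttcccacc
The core was found in 9 of 20 promoters of the list (45%) and in 21.6% of all promoters.

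For 11 of the 23 hypoxia and glycolysis genes the time change was more negative after charcoal, where it was for 7% of all genes. For DDIT4 it was more positive, as for 16.2% of all genes. At 24 h 8 of the 23 were lower than control and 0 were higher, where 3.82% and 6.05% of all genes were. PDK1, which keeps pyruvate out of mitochondria, rose in both, with 4.02 ± 0.37 FPKM at 24 h and 2.52 ± 0.12 FPKM at 2 h after charcoal and 7.84 ± 0.78 and 2.71 ± 0.18 FPKM in control wells. HK2, a hexokinase, did not pass the test after charcoal (6.07 ± 0.67 FPKM at 24 h and 5.02 ± 0.28 FPKM at 2 h) and rose in control wells by 1.44. The secreted factors VEGFA, ADM and ANGPTL4 fell after charcoal, as did the glycolytic regulator PFKFB3, and these were the 4 members that fell. ADM had 52.7 ± 0.92 FPKM at 24 h and 164 ± 22 FPKM at 2 h, and VEGFA 5.43 ± 0.50 and 9.80 ± 0.74 FPKM. In control wells VEGFA rose, with 6.97 ± 0.53 FPKM at 24 h and 3.39 ± 0.51 FPKM at 2 h.

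Genes of mitosis were higher at 24 h than at 2 h after charcoal. Of 26 tested, 22 rose and 0 fell, beside 30.1% of all genes that rose, and their median change was 0.43. After scaling 18 of the 26 remained called, beside 1540 of all 8531 genes called higher. In control wells 1 of 26, HMMR, rose, where 7.44% of all genes did. TTK, the kinase of the spindle checkpoint (chromosome 6, 80004649 to 80042527), had 28.7, 29.4 and 29.0 FPKM at 24 h and 17.7, 18.2 and 17.5 FPKM at 2 h after charcoal. Control wells had 29.3, 27.9 and 28.8 FPKM at 24 h and 28.1, 28.3 and 29.3 FPKM at 2 h. The charcoal wells at 2 h lay below all other 9 wells, which overlapped each other. NDC80, of the outer kinetochore, had 60.9, 61.3 and 62.1 FPKM at 24 h and 38.5, 39.2 and 37.2 FPKM at 2 h, with control wells between 58.4 and 61.8 FPKM at both times. CCNA2, cyclin A2, had 54.7 ± 1.1 FPKM at 24 h and 34.3 ± 0.56 FPKM at 2 h.

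The time change was more positive after charcoal for 19 of the 26 genes, where it was for 16.2% of all genes. After scaling it was for 11 of the 26, and for 716 of all 8531 genes. At 2 h 24 of the 26 had been lower than control (16.2% of all genes), and at 24 h none was called. CCNF, cyclin F, which is on no list and was among the 6 largest positive differences, had 16.1, 16.0 and 14.6 FPKM at 24 h and 6.74, 5.93 and 6.75 FPKM at 2 h after charcoal. Control wells had 13.4 to 14.3 FPKM at 24 h and 14.3 to 14.9 FPKM at 2 h. No count of dividing cells stands beside these values.

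The NDC80 promoter, from RefSeq on GRCh38.p14, holds the cell cycle homology region, an element of genes that peak in late cell cycle. Its letters, TTTGAA, lie on the minus strand here and so read TTCAAA in capitals, beginning 3 bases before the start.
NDC80 promoter, chr18:2571307-2571606, plus strand: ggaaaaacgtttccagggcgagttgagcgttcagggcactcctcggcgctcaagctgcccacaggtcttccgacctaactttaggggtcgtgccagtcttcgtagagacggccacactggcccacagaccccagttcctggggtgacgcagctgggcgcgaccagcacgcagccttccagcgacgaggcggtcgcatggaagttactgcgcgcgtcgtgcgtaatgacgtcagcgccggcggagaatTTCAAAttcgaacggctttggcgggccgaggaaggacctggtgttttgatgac
The letters were found in 14 of 21 promoters of the mitosis list (66.7%) and in 15.4% of all. CCAAT, a box that often stands beside it, was found in 16 of 21 (76.2%) and in 35.7% of all.

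DNA replication and S phase genes moved less. Of 23 tested 8 rose and 0 fell, which is close to the 30.1% of all genes that rose, 3 rose after scaling, and 5 rose without well 1 at 2 h or without well 2 at 24 h. POLD3, a subunit of DNA polymerase delta, had 12 ± 0.27 FPKM at 24 h and 8.35 ± 0.45 FPKM at 2 h, and RRM1, which makes deoxynucleotides, 133 ± 0.32 and 104 ± 1.9 FPKM.

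Of 14 tested targets of p53, 8 rose, where 30.1% of all genes did, and 2 fell, where 12.4% did. After scaling 5 rose and 4 fell, where 1540 and 1624 of 8531 genes did. Without well 2 at 2 h after charcoal 5 rose. The falls without scaling were CDKN1A, the cell cycle inhibitor p21, with 47.2 ± 2.9 FPKM at 24 h and 65.9 ± 3.0 FPKM at 2 h, and PLK3, a stress-induced kinase, with 0.539 ± 0.099 and 6.73 ± 0.93 FPKM. XPC, which recognises damaged DNA, had 10.1, 9.59 and 9.73 FPKM at 24 h and 5.49, 5.94 and 6.19 FPKM at 2 h, against 9.55 to 10 FPKM and 8.93 to 9.35 FPKM in control wells at those times. Like TTK, XPC was lowest in charcoal wells at 2 h, and its time change exceeded that of control wells by 0.57 (adjusted p = 1.07e-05).

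Of the genes that rose after charcoal, 87 fell in control wells, which is 3.39%, where 9.44% of all genes fell. They are 10.8% of the genes that fell in control wells, where 30.1% of all genes rose after charcoal. Both shares lay below those of all genes. AKR1C3, an aldo-keto reductase that reduces steroids, prostaglandins and carbonyls (chromosome 10, 5048781 to 5107686), had 6.73, 8.42 and 8.01 FPKM at 24 h and 3.59, 2.96 and 3.55 FPKM at 2 h after charcoal. Control wells had 1.87, 1.90 and 2.00 FPKM at 24 h and 3.46, 3.76 and 4.79 FPKM at 2 h. At 2 h charcoal and control wells overlapped, and at 24 h the charcoal wells stood highest and the control wells lowest of the 4 groups. The log2 change was 1.00 ± 0.14 after charcoal (SE, adjusted p = 3.27e-06) and -0.77 in control wells (adjusted p = 3.8e-04), and the difference was 1.76 ± 0.19 (adjusted p = 5.66e-07). AKR1C genes are close in sequence, so reads may be divided between them. AKR1C1 was not called with time after charcoal (0.05) and had 0.208 ± 0.20 FPKM at 24 h.

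AKR1B1, aldose reductase, had 519, 619 and 726 FPKM at 24 h and 356, 288 and 347 FPKM at 2 h after charcoal, against 257, 228 and 215 FPKM at 24 h and 334, 306 and 401 FPKM at 2 h in control wells. SLC38A4, an amino acid transporter, had 5.10, 5.25 and 6.34 FPKM and 2.85, 2.39 and 3.23 FPKM at 24 h and 2 h after charcoal, and 1.59 ± 0.19 and 3.36 ± 0.55 FPKM in control wells. S100A4, a calcium-binding protein of motile cells, stood at 13.6 ± 1.2 and 8.97 ± 1.4 FPKM after charcoal and 6.15 ± 0.32 and 9.62 ± 1.2 FPKM in control wells. In all of these the charcoal wells at 24 h lay above every control well at 24 h, without overlap.

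NQO1, the quinone reductase that is the textbook NRF2 target, did not differ with time after charcoal, with 59.3, 65.1 and 67.2 FPKM at 24 h and 63.8, 61.8 and 64.2 FPKM at 2 h (0.01, adjusted p = 0.918). In control wells it fell to 40.3, 40.1 and 36.8 FPKM at 24 h, against 64.3, 64.2 and 69.9 FPKM at 2 h. Its level at 24 h was therefore 0.69 ± 0.074 higher after charcoal than in control wells (log2, SE, adjusted p = 2.29e-06), without a rise in the charcoal wells.

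Of 21 tested NRF2 targets 5 rose and 5 fell after charcoal, where 30.1% and 12.4% of all genes did. After scaling 4 rose and 8 fell, where 1540 and 1624 of 8531 genes did. In control wells 0 rose and 9 fell, where 7.44% and 9.44% of all genes did. At 24 h 9 of the 21 were higher than control and 1 was lower, where 6.05% and 3.82% of all genes were. The 5 that fell after charcoal included TXNRD1, thioredoxin reductase, with 145, 141 and 144 FPKM at 24 h and 228, 231 and 243 FPKM at 2 h, SRXN1, sulfiredoxin, with 39.0 ± 1.1 and 57.3 ± 1.8 FPKM, and OSGIN1, with 0.566 ± 0.23 and 3.52 ± 0.45 FPKM. None of these 3 was called against control at 24 h. The 9 that were higher at 24 h included NQO1, AKR1B1, AKR1C3, EPHX1, PRDX1, GCLC, the pentose phosphate enzyme TKT and ME1, which supplies NADPH. ME1 was 0.43 above control at that time (log2, adjusted p = 0.000126). SLC7A11, the cystine transporter, was the 1 that was lower (1.12 ± 0.15 against 1.84 ± 0.12 FPKM), and it is also a target of ATF4. At 2 h the members higher than control were TXNRD1, SRXN1, OSGIN1, UGDH and GCLM, so no member was higher than control at both times.

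**Figure D4:**
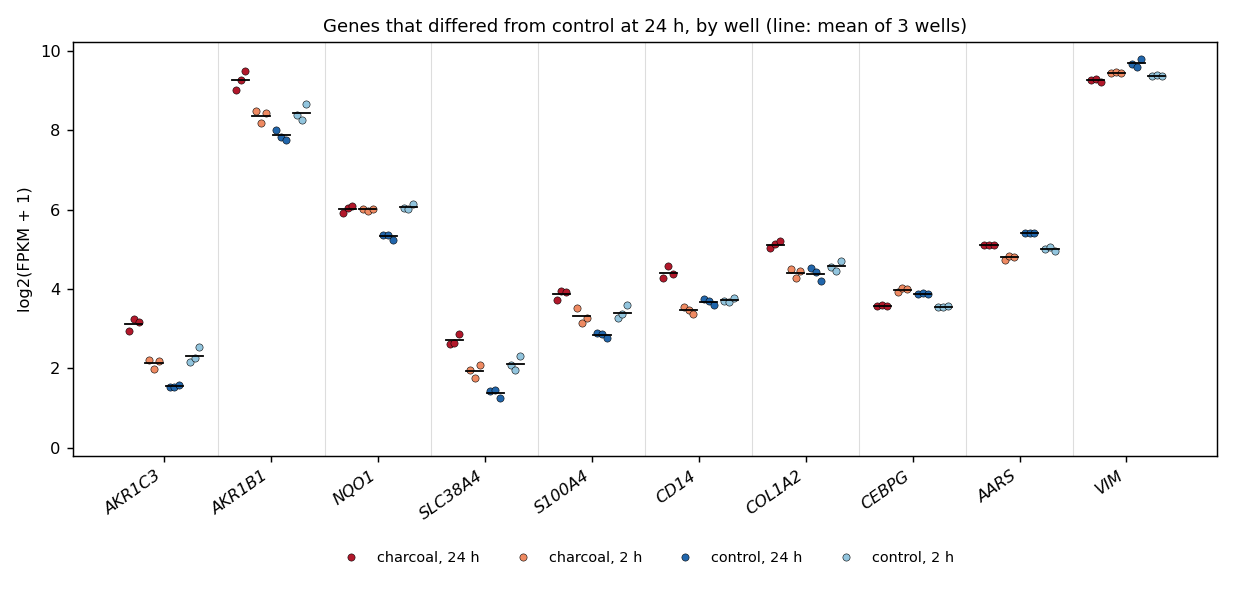
The 10 genes shown differed between charcoal and control wells at 24 h, as log2(FPKM + 1) on the vertical axis, with 1 point per well and a line at the mean of 3 wells; groups run charcoal 24 h, charcoal 2 h, control 24 h, control 2 h. For NQO1 the charcoal wells hold 59.3 to 67.2 FPKM at both times while control wells at 24 h lie at 36.8 to 40.3 FPKM; for AARS and VIM the control wells at 24 h lie highest.

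Genes of the integrated stress response, which ATF4 turns on when amino acids run short or proteins misfold, fell after charcoal in 7 of 16 tested, where 12.4% of all genes fell, and rose in 0. Of the 16, 4 fell when well 2 at 2 h or well 3 at 24 h was left out. In control wells 8 rose, where 7.44% of all genes did, and 1 fell. The time change was more negative after charcoal for 12 of the 16 (median difference -0.59), and for 7% of all genes. At 24 h 11 were lower than control, where 3.82% of all genes were, and 0 higher. PPP1R15A, which ends the response by restoring the initiation factor eIF2, had 18.0, 18.3 and 17.7 FPKM at 24 h and 83.5, 80.6 and 69.2 FPKM at 2 h after charcoal. SLC3A2, the heavy chain of amino acid transporters, had 85.2, 86.7 and 83.8 FPKM and 156, 154 and 151 FPKM. Neither was called against control at 24 h.

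The members lower than control at 24 h included enzymes of amino acid synthesis. ASNS, asparagine synthetase, stood at 3.75 ± 0.11 FPKM at 24 h and 6.61 ± 0.93 FPKM at 2 h after charcoal, and at 17.7 ± 1.6 FPKM at 24 h and 6.98 ± 0.86 FPKM at 2 h in control wells. Its difference from control at 24 h was -1.98 (log2, adjusted p = 1.24e-05). PSAT1, of serine synthesis, was 28.6 ± 0.96 and 29.9 ± 1.3 FPKM after charcoal, and 67.7 ± 7.7 and 32.4 ± 0.96 FPKM in control wells. CEBPG, a partner of ATF4, had 10.8, 11.1 and 10.9 FPKM at 24 h and 14.1, 15.3 and 15.1 FPKM at 2 h after charcoal, and 13.7, 14.0 and 13.6 FPKM at 24 h and 10.7, 10.6 and 10.9 FPKM at 2 h in control wells, so it fell after charcoal and rose in control wells. CEBPB fell after charcoal as well, while its 25.9 ± 6.2 FPKM at 24 h was not called against the 23.4 ± 3.5 FPKM of control.

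The tRNA synthetases load amino acids on tRNAs, and several are ATF4 targets. Of 15 tested 6 rose after charcoal, near the 30.1% of all genes that did, and 0 fell. In control wells 11 rose, where 7.44% of all genes did, and 1 fell. At 24 h 11 of the 15 were lower than control, where 3.82% of all genes were, and 1, HARS, was higher. AARS had 33.3, 33.5 and 33.4 FPKM at 24 h and 25.6, 27.5 and 27.1 FPKM at 2 h after charcoal, and 41.8, 41.4 and 41.6 FPKM at 24 h and 31.1, 32.1 and 30.0 FPKM at 2 h in control wells. YARS was not called with time after charcoal (21.3 ± 0.083 FPKM at 24 h and 22.2 ± 1.3 FPKM at 2 h) and had 35.1 ± 1.9 FPKM in control wells at 24 h. The time change was more negative after charcoal for 7 of the 15, where it was for 7% of all genes, and for 4 when well 1 of charcoal at 24 h was left out. An ATF4 motif, TGATGNAA on either strand, was found in 5 of 12 promoters of these genes (41.7%), in 3 of 13 of the integrated stress response list (23.1%) and in 3.67% of all promoters.

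Of 15 tested genes of cholesterol synthesis and uptake 10 fell after charcoal, where 12.4% of all genes did, and 1 rose. In control wells 12 fell, where 9.44% of all genes did, and 0 rose. After scaling 13 fell and 0 rose after charcoal, and 6 fell when well 2 at 24 h was left out. HMGCS1, which makes the precursor of mevalonate, had 35.3, 35.6 and 29.1 FPKM at 24 h and 53.8, 77.5 and 58.0 FPKM at 2 h after charcoal, and 37.6 ± 5.4 FPKM at 24 h and 68.2 ± 11 FPKM at 2 h in control wells. Its falls of 0.89 and 0.84 were not called different (-0.05, adjusted p = 0.893). LSS, lanosterol synthase, fell by 0.49 after charcoal and by 0.81 in control wells, and that difference was called (adjusted p = 0.0347), though not in 7 of the 12 fits that left out 1 well of the 4 groups. For 8 of the 15 the time change was more positive after charcoal, where it was for 16.2% of all genes. After scaling it was for 3 of the 15, and for 716 of all 8531 genes. Without scaling the count of 8 became 3 to 5 when well 1 or 3 of control at 2 h, well 2 or 3 of charcoal at 2 h, well 3 of control at 24 h, or well 2 or 3 of charcoal at 24 h was left out.

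Keratins and junction proteins showed opposite members. Of 14 tested junctions and keratins genes 6 rose and 3 fell after charcoal, where 30.1% and 12.4% of all genes did. After scaling 4 rose and 3 fell. KRT8, a keratin of simple epithelia, had 656, 728 and 696 FPKM at 24 h and 542, 503 and 513 FPKM at 2 h, and was higher than control at 24 h (560 ± 41 FPKM, adjusted p = 0.00107). KRT18, its partner, stood at 428 ± 1.9 FPKM at 24 h and 284 ± 32 FPKM at 2 h, and was not called against control at 24 h. CLDN1, a tight junction claudin, had 39.9, 40.2 and 38.3 FPKM at 24 h and 97.1, 93.1 and 101 FPKM at 2 h after charcoal, with control wells at 35.5 ± 6.4 and 48.1 ± 1.4 FPKM. KRT80 fell by 0.76, with control wells not called.

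Matrix and mesenchymal genes were mixed. The summed level of 9 fibroblast markers, most of it VIM, was 955 to 993 FPKM at 24 h and 999 to 1020 FPKM at 2 h after charcoal, and its part in these results was not tested. Of 19 tested extracellular matrix genes 5 rose and 3 fell after charcoal, near the 30.1% and 12.4% of all genes that did. After scaling 2 rose and 5 fell. Without well 1 at 2 h 3 rose. COL1A2, a chain of type I collagen, had 31.5, 33.8 and 35.9 FPKM at 24 h and 21.6, 18.5 and 21.0 FPKM at 2 h after charcoal, and 22.2, 20.6 and 17.3 FPKM at 24 h and 22.4, 21.0 and 25.2 FPKM at 2 h in control wells. The charcoal wells at 24 h lay above the other 9. TGFBI, a matrix protein named for its induction by TGF-beta, and the collagen cross-linker LOX did not pass the test with time after charcoal but rose in control wells, so that at 24 h both were lower after charcoal. TGFBI stood at 335 ± 8.8 FPKM at 24 h after charcoal and 536 ± 19 FPKM in control wells at 24 h. VIM, vimentin, stood at 612 ± 15 and 700 ± 3.6 FPKM after charcoal, and at 825 ± 55 and 664 ± 2.2 FPKM in control wells, at 24 h and 2 h. Its fall after charcoal was not called without well 1 at 2 h (adjusted p = 0.0563), well 2 at 2 h (0.0601) or well 3 at 24 h (0.0832).

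CD14, a receptor for bacterial lipopolysaccharide and a marker of monocytes, had 18.3, 22.9 and 19.6 FPKM at 24 h and 10.7, 10.1 and 9.30 FPKM at 2 h after charcoal, with control wells at 11.8 ± 0.72 and 12.1 ± 0.48 FPKM. Its rise was 0.94 ± 0.12 (SE, adjusted p = 2.01e-06). Of the 8 immune cell markers 4 were at 0 in every charcoal well at 24 h and 6 at 2 h, and the sum of all 8 was 25.2 to 33.1 FPKM and 17.5 to 19.2 FPKM at those times, most of it CD14 and CD68. Their part in the result was not tested.

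Of 11 tested retinoid genes 4 rose and 4 fell after charcoal, where 30.1% and 12.4% of all genes did. DHRS3, which returns retinal to retinol, had 14.1, 14.9 and 13.2 FPKM at 24 h and 5.06, 5.60 and 4.42 FPKM at 2 h, and stood above the 8.99 ± 1.3 FPKM of control wells at 24 h (adjusted p = 0.00977, and 0.0681 without control well 3). RARRES1, named for its response to retinoids, rose to 6.25 ± 0.23 FPKM at 24 h, against 2.91 ± 0.34 FPKM at 2 h. RDH10, which makes retinal, fell to 1.86 ± 0.10 FPKM at 24 h, against 5.43 ± 0.27 FPKM at 2 h. RARA, a retinoic acid receptor, fell to 7.25 ± 0.26 FPKM, against 20.4 ± 0.52 FPKM at 2 h.

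Of 9 tested interferon response genes 5 were higher at 24 h after charcoal, where 30.1% of all genes were, and 0 lower, and in control wells none was called, where 16.9% of all genes were. IFIT1, an RNA sensor, had 2.67 ± 0.14 FPKM at 24 h and 1.48 ± 0.13 FPKM at 2 h, and was the 1 of 9 whose rise differed from control wells (0.50, adjusted p = 0.0199). DDX58, the sensor RIG-I, stood at 5.48 ± 0.36 and 4.23 ± 0.083 FPKM.

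Of 24 oxidative phosphorylation genes 8 rose, near the 30.1% of all genes that did, and 0 fell. After scaling 3 rose, where 1540 of 8531 genes did, and without well 2 at 24 h 5 rose. NDUFB5, of complex I, had 96.1 ± 2.0 FPKM at 24 h and 73.8 ± 1.8 FPKM at 2 h. Of 15 cytosolic ribosomal proteins 1, RPL22, rose, where 30.1% of all genes did. Of 25 proteasome genes 2 rose and 1 fell, where 30.1% and 12.4% of all genes did. After scaling 0 rose and 11 fell, where 1540 and 1624 of 8531 genes did, so no direction can be given for them. Of 17 lysosome and autophagy genes 2 rose and 3 fell after charcoal, where 30.1% and 12.4% of all genes did. In control wells 0 rose and 8 fell, where 7.44% and 9.44% of all genes did. There 4 or 5 fell when well 1 or 3 at 2 h or well 3 at 24 h was left out. In the ribosome biogenesis and nucleolus list 9 of 21 fell, where 12.4% of all genes did, and 1 rose. After scaling 13 fell and 0 rose, where 1624 and 1540 of 8531 genes did. RRS1, an assembly factor of the large subunit, stood at 8.45 ± 0.10 FPKM at 24 h and 15.8 ± 0.48 FPKM at 2 h, and WDR43 at 13.0 ± 0.48 and 20.3 ± 0.37 FPKM.

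**Figure D5:**
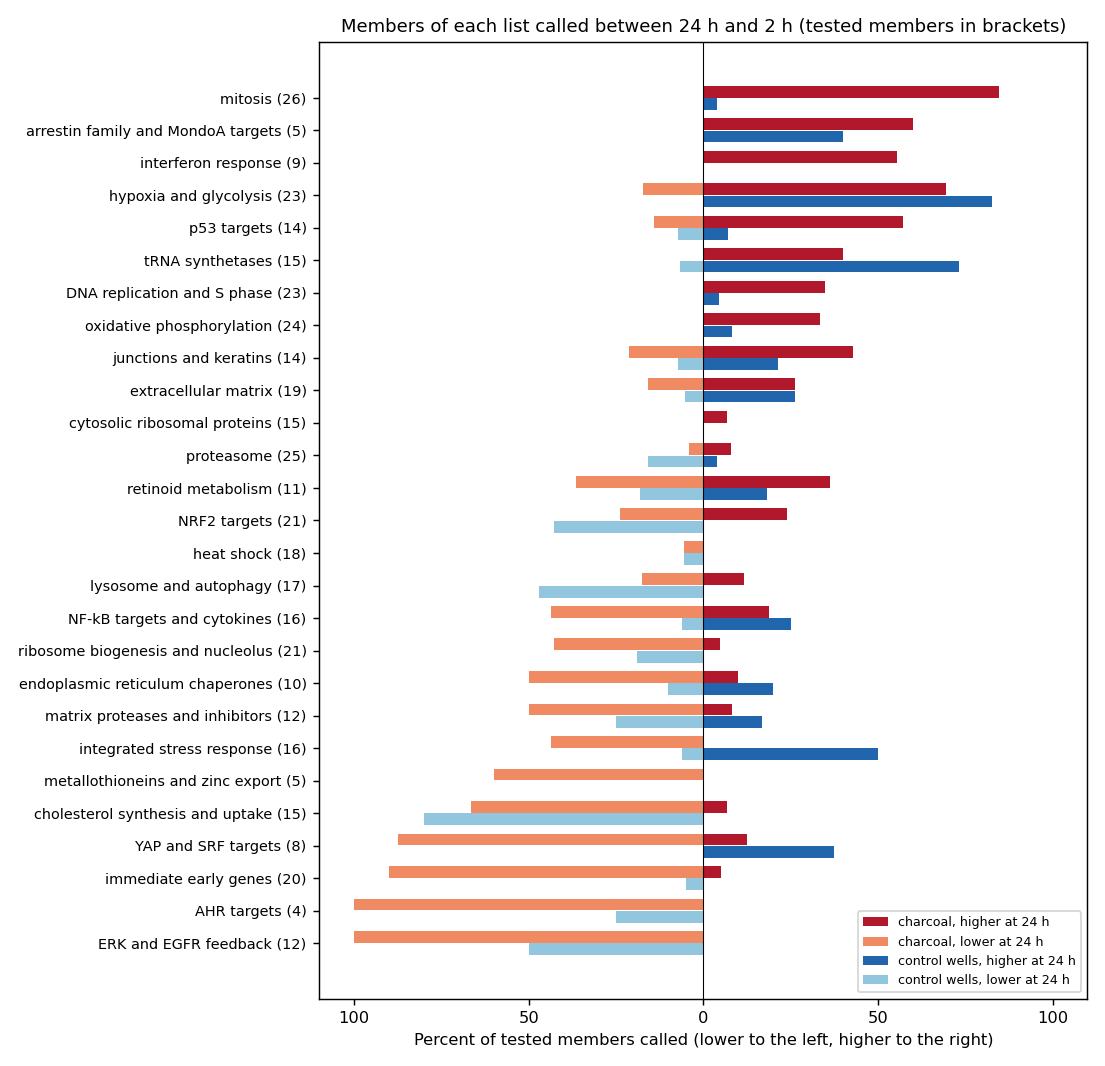
For each list with at least 4 tested members (number in brackets), bars give the percent of members called higher at 24 h (to the right) or lower (to the left) than at 2 h, after charcoal (red and orange) and in control wells (blue and light blue). ERK and EGFR feedback genes have 12 of 12 members lower after charcoal and mitosis has 22 of 26 higher, while for the integrated stress response the charcoal and control bars point opposite ways.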

How the data were processed

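RNA from BEAS-2B wells was sequenced as single-end 50 bp reads from libraries made with a TruSeq RNA kit from 1 ug of total RNA, per the labels' protocols. The authors deposited FPKM values per transcript, made with HISAT2 2.1.0, StringTie 1.3.4d and the hg38 build, per the submitters' processing notes; strand settings are not given in the sources used here. Of 29190 transcript rows the row with the highest mean over 30 libraries stood for each of 22538 gene names. Genes with at least 1 FPKM in at least 3 libraries (8531) were tested with limma 3.58.1 in R 4.3.3, with a mean-variance trend, on log2(FPKM + 1), which understates the change of low genes. The fit held all 30 libraries in 10 groups of 3, and genes with a Benjamini-Hochberg adjusted p below 0.05 were called. Folds are ratios of mean FPKM, and log2 changes and adjusted p-values in the text are limma's. The method was tested on simulated data, and the outcome of that test is not reported here.

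Depth in reads was not recovered. Among low FPKM values some ratios between libraries were ratios of small whole numbers, which gave relative depth only, from 0.987 to 2.06 over the 30 libraries, so no counting intervals are given. Of 8023 transcripts with a median of at least 1 FPKM, 171 had an exact 0 in some library, which may be a failed estimate.

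Alternatives were the replicate number as a block, the compared groups alone, no filter, a filter at 5 FPKM, a pseudocount of 0.1, median-of-ratios scaling, the sum of the rows of a name, and each library left out in turn. Genes named by rule were the 10 largest rises and the 10 largest falls with a mean of 5 FPKM or more in the higher group and wells that did not overlap, the 6 most positive and 6 most negative differences between time changes, the 3 smallest p-values of each list, and a fixed set of 19 marker genes of the pathways; other list members were named after their values were seen. The gene lists, members and tests were chosen with earlier results of these data known. Promoters are from RefSeq on GRCh38.p14. Motifs searched but not described above follow, with the share of all promoters in brackets. The sterol element TCACNCCAC was in 0 of 9 cholesterol promoters (1.15%), and CACGTG in 1 of 5 arrestin and MondoA promoters (7.43%). In immediate early promoters the AP-1 site TGANTCA was in 1 of 17 (7.76%) and TGACGTCA in 2 of 17 (1.98%). The NRF2 core TGACNNNGC was in 4 of 16 NRF2 target promoters (13.6%), and the AHR core GCGTG in 2 of 3 AHR target promoters (36.3%). Some genes, among them 1 of the 10 largest rises, are not reported here. Figures were drawn with matplotlib 3.10.9, and tables were made with pandas 2.3.3 and numpy 2.4.6 under Python 3.11.15.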

Additional observations from a re-analysis of the deposited data

Results flagged for a closer look

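The change between 24 h and 2 h differed between charcoal and control wells, by the test of that difference itself, for 1979 of 8531 genes. The 6 genes named for the most positive differences, charcoal minus control on the log2 scale, were AKR1C3 with 1.76, TXNIP with 1.59, SLC38A4 with 1.52, AKR1B1 with 1.47, CCNF with 1.23 and S100A4 with 1.12. AKR1C3, SLC38A4, AKR1B1 and S100A4 rose after charcoal and fell in control wells. TXNIP rose in both, and CCNF rose after charcoal and was not called in control wells (-0.08, adjusted p = 0.585 by limma).

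The 6 named for the most negative differences were NR4A1 with -5.23, ANKRD1 with -3.92, ERRFI1 with -3.32, DLX2 with -3.27, ATF3 with -3.23 and IL11 with -3.20. All 6 fell after charcoal, and none of the 6 was called with time in control wells. None was called between charcoal and control wells at 24 h.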

How the results depend on the processing

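The counts of called genes stayed within 1.5 times the main count under every alternative to the fit, filter, pseudocount, scaling and choice of row. Without one library the count for charcoal 24 h vs 2 h was 3090 to 3258 (3628 with all), that for the difference in time change 1610 to 1841 (1979), and that for charcoal against control at 2 h 1597 to 1744 (2081). For charcoal against control at 24 h it was 511 to 602 (842), and for control 24 h vs 2 h 885 to 1071 (1440). Same-numbered wells of 24 h and 2 h after charcoal did not deviate together (correlations -0.0557, 0.044 and 0.0808), and not every well correlated best with its own number. With the replicate block 3630, 1419, 1976, 828 and 2081 genes were called for charcoal over time, control over time, their difference, and charcoal against control at 24 h and 2 h. Median-of-ratios scaling gave 956 higher and 688 lower at 2 h, against 696 and 1385 without it, and 416 higher and 434 lower at 24 h, against 516 and 326. It left 2598 of the 3628 genes called after charcoal. Of 108 named genes 108 kept their call under the block and the pseudocount. PSMA2 (adjusted p = 0.334) and PSMD4 (0.181) lost it under scaling. DNAJB4 (0.00297), MUC1 (0.0415) and RPS19 (0.0399) were called in the compared groups alone. These p-values are limma's, and the cause was not tested. Depth limits low genes most, and no read counts stand behind the values.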

Other observations

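Zinc finger genes with ZNF names mostly encode DNA-binding repressors. At 24 h after charcoal 157 of 285 tested were higher than at 2 h, where 30.1% of all genes were. Lower were 16, where 12.4% of all genes were. After median-of-ratios scaling 117 were higher and 21 lower, where 1540 and 1624 of 8531 genes were. Their median log2 change without scaling was 0.25, against 0.08 for all tested genes. In control wells 5 were higher and 21 lower, where 7.44% and 9.44% of all genes were. At 2 h 8 had been higher and 108 lower than control (8.16% and 16.2% of all genes), and at 24 h 10 were higher and 1 lower (6.05% and 3.82%). ZNF788 had 6.76, 5.90 and 6.13 FPKM at 24 h and 2.74, 2.28 and 2.64 FPKM at 2 h after charcoal, and 7.22, 6.42 and 7.12 FPKM at 24 h and 5.76, 5.38 and 5.43 FPKM at 2 h in control wells. Its charcoal wells at 2 h lay below the other 9. ZNF703, a corepressor, and ZNF503 fell, by 0.99 and 1.06 on the log2 scale. ZNF genes are many and alike, and short reads may be divided among them. These families were formed by gene name after other results were seen.

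Histone genes with HIST names mostly encode the histones made in S phase. After charcoal 11 of 28 tested rose, near the 30.1% of all genes that did, and 0 fell. After scaling 8 rose and 0 fell, where 1540 and 1624 of 8531 genes did. In control wells 0 rose and 4 fell, where 9.44% of all genes did. At 24 h 11 were higher than control, where 6.05% of all genes were, and 0 lower. HIST1H1C, a linker histone, had 32.7, 33.7 and 37.7 FPKM at 24 h and 21.6, 19.6 and 21.8 FPKM at 2 h after charcoal, and 22.4, 19.9 and 22.9 FPKM at 24 h and 21.1, 21.8 and 25.0 FPKM at 2 h in control wells. The charcoal wells at 24 h stood above the other 9, and the difference from control at that time was 0.65 (log2, limma adjusted p = 0.000811). Kinesins, motor proteins of which several serve the spindle, were higher in 11 of 19 and lower in 0 after charcoal, where 30.1% and 12.4% of all genes were. After scaling 8 were higher and 1 lower. In control wells 0 were higher and 1 lower, where 7.44% and 9.44% of all genes were. The time change was more positive after charcoal for 8 of the 19 (16.2% of all genes), and for 2 after scaling (716 of 8531 genes). KIF11 is also on the mitosis list, so these counts are not separate from those of that list.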
